A study of Mus musculus with 23 samples.

Results

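Immediate early genes are transcribed within minutes of a stimulus, without new protein synthesis, and 10 of them were followed here in mouse brain microglia: Fos, Fosb, Jun, Junb, Jund, Egr1, Ier2, Atf3, Dusp1 and Klf6. They were picked by symbol out of 53090 deposited genes, and all 10 were found and passed the filter on low counts. Poly(A) RNA was sequenced in 23 libraries of microglia from female C57BL/6 mice: 7 young (Y), 3 young repopulated (Y-re), 5 old (O) and 8 old repopulated (O-re). For repopulation, the CSF1R inhibitor PLX5622 had been given in AIN-76A chow at 1200 ppm to remove microglia, and control mice ate the chow without the drug. Microglia need CSF1R signalling to survive, and the drug acts on every cell that depends on this receptor, not on microglia alone. Ages, the length of treatment and the time allowed for repopulation are not given in the sources used here. All groups share the isolation: brains were digested with enzymes under warming, and the protocol describes magnetic CD11b selection and culture while the extraction text names sorted microglia.

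Fos and Fosb pair with Jun, Junb and Jund to form AP-1, a dimeric transcription factor that carries growth, stress and inflammatory signals from MAP kinases to chromatin. Egr1 is a zinc finger factor switched on by serum response factor, Ier2 is a small nuclear protein of the same early wave, and Atf3 is a stress-induced factor of the CREB family. Dusp1 is a phosphatase that switches off p38 and JNK MAP kinases, and Klf6 is a Kruppel-like zinc finger factor. In microglia these genes respond to injury and to inflammatory signals, and warm enzymatic dissociation is known to induce them as well. Every library here had been dissociated, so levels set in the brain and levels set during isolation cannot be told apart.

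The promoters of 4 members are shown because they carry copies of the cAMP response element, the site of CREB and ATF factors, or a near match. Each is the 150 bases before the RefSeq start site in GRCm38.p6, read 5′ to 3′ on the strand of the gene, and capitals mark matches to TGACGTCA with at most 1 mismatch or to its half-site TGACG.
Fos, chr12:85473740-85473889, plus strand: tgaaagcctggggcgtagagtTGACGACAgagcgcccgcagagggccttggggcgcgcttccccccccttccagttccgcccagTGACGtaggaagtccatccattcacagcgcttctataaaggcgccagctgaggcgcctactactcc
Jun, chr4:95052223-95052372, minus strand: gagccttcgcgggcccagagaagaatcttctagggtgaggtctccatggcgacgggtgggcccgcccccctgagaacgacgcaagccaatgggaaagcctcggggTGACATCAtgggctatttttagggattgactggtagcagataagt
Atf3, chr1:191183334-191183483, minus strand: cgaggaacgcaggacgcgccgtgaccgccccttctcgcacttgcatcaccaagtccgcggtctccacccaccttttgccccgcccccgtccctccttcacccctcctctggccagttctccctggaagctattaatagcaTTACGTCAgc
Dusp1, chr17:26508473-26508622, minus strand: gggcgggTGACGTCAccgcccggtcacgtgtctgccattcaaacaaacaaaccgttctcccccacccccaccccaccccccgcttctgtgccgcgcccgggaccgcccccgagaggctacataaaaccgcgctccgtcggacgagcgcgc
Motifs were searched on both strands of the RefSeq promoter windows, 250 bases before to 50 after the start, which were at hand for 8 members (all but Egr1 and Ier2) and for 32851 promoters in all. TGACGTCA itself stood in 1 of the 8 (Dusp1) and in 1.79% of all promoters. With at most 1 mismatch, which includes the exact matches, it stood in 5 of the 8 (Fos, Jun, Atf3, Dusp1 and Klf6) and in 12.5% of all promoters. The half-site TGACG, which lies within the full site, stood in 5 of the 8 (Fos, Fosb, Junb, Atf3 and Dusp1) and in 20.8%. The AP-1 site TGACTCA, the CArG box of serum response factor and the Egr1 site GCGTGGGCG matched in 0 of the 8 windows and in 5.2%, 1.63% and 0.612% of all promoters. TATAAA stood in 2 of the 8 (Fos and Junb) and in 13.6%. These matches describe letters and are not shown to be bound. Sites outside these windows, and the promoters of Egr1 and Ier2, were not searched. RefSeq starts do not all match GENCODE M21, the annotation used below. The 150 bases before the RefSeq start of Jund end at 70697738, ahead of its GENCODE start at 70698949. Those of Atf3 and Dusp1 lie inside the GENCODE spans, 191170296 to 191218039 and 26505590 to 26562128. For these members the matches hold for the RefSeq starts only.

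The members also have few exons, and most of their transcripts carry AU-rich elements, sequences through which mRNAs are degraded fast. In GENCODE M21 all 10 members had at most 4 exons, against 22.5% of 13698 genes compared. The pentamer ATTTA occurred at a median of 2.39 copies per kb of 3′ UTR in the members and 1.34 in 13007 genes, and TATTTAT was present in 7 of 10 members (all but Junb, Egr1 and Ier2) and in 30.4% of those genes. Jun also had a window of 30 bases with 2 copies of ATTTA (3′ UTR bases 1028 to 1057), and it was not called in Y-re versus Y in any setting. Such a window, with ATTTA in capitals, is shown for Fos and Dusp1, the 2 members that rose in Y-re among the higher-numbered libraries described below. A link between these elements and that rise was not tested.
Fos, 3′ UTR bases 632 to 661: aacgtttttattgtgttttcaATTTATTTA
Dusp1, 3′ UTR bases 84 to 113: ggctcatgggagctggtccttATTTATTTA
By GENCODE M21 on GRCm38, Fos (ENSMUSG00000021250.13) lies on chromosome 12 from 85473890 to 85477273 on the plus strand and has 4 exons. Jun (ENSMUSG00000052684.4) is a gene of 1 exon on chromosome 4, from 95049034 to 95052222 on the minus strand. Junb, Jund and Ier2, each with 1 exon in the transcript compared, all lie on chromosome 8: Ier2 from 84661331 to 84662852 and Junb from 84974484 to 84978718 on the minus strand, and Jund from 70698949 to 70700616 on the plus strand. Jund was deposited as 2 gene models with identical values in every library, which were summed here, so the division of its reads is uncertain.

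Library totals ranged from 43.66 to 58.19 M counts. The sample titles number the libraries, and numbers 1 to 11 (3 Y, 2 O and 5 O-re, called lower-numbered below) were set against 12 to 24 (4 Y, 3 Y-re, 3 O and 3 O-re, called higher-numbered). The titles do not say what the numbers mean, and library 5 was not analysed here. The labels do not state that libraries came from separate mice, so p-values measure the spread between these libraries, which may be technical. The 10 microglia markers, P2ry12, Tmem119 and Sall1 among them, had counts in all 23 libraries, and their summed level was 26201 to 31659 CPM (counts scaled to a common library total by TMM) in Y, 23266 to 26962 in Y-re, 11420 to 26270 in O and 10722 to 29382 in O-re. The 6 markers of border-associated macrophages, such as Mrc1 and Ms4a7, summed to 55.0 to 199 CPM in Y, 277 to 386 in Y-re, 172 to 829 in O and 68.2 to 1178 in O-re. The 10 markers of monocytes and neutrophils summed to 25.9 to 132 CPM in Y, 84.8 to 308 in Y-re, 173 to 1360 in O and 106 to 935 in O-re. Summed neuronal markers (5 of 6, without Syt1, which did not pass the filter) stayed between 0.441 and 5.16 CPM in all libraries. Of 6 T and NK cell markers, Cd3e, Nkg7 and Ncr1 did not pass the filter. The other 3, the T cell genes Cd3d, Trac and Cd8a, summed to 0 to 1.46 CPM. Astrocyte markers summed to 20.5 to 179 CPM, with 84.6 to 179 in Y and 20.5 to 107 in O-re. Oligodendrocyte markers (5 of 6, without Mog, which did not pass the filter) summed to 95.5 to 139 CPM and endothelial and pericyte markers to 19.6 to 82.6 CPM. In bulk RNA, fewer cells of a type and less RNA per cell cannot be told apart.

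The 10 genes were abundant in every library. Together they took 0.553% to 1.66% of all counts, with a median of 0.85%. Per length, in the deposited TPM, which divides counts by transcript length and library total, Junb was highest with a median of 1546 TPM over the 23 libraries, a median rank of 75 among all genes. Fos followed with 1189 TPM (rank 118), Atf3 with 1012 (rank 151), Dusp1 with 674 (rank 226), Jun with 673 (rank 216), Egr1 with 489 (rank 303) and Jund with 472 (rank 309). Fosb at 353 TPM (rank 403), Ier2 at 337 (rank 421) and Klf6 at 238 (rank 598) were lowest. The mean log2 ratio between neighbours in this order exceeded its SD over libraries for Junb over Fos (0.44 ± 0.30), Atf3 over Dusp1 (0.58 ± 0.52), Jun over Egr1 (0.43 ± 0.31) and Ier2 over Klf6 (0.54 ± 0.47). It did not for Fos and Atf3, Dusp1 and Jun, Egr1 and Jund, Jund and Fosb, or Fosb and Ier2. Dusp1 was above Jun in 11 of 23 libraries and Fosb above Ier2 in 9 of 23, so those pairs have no fixed order.

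Members differed in how far they varied from library to library. The highest library exceeded the lowest 8.91-fold for Egr1, 6.71-fold for Jun, 6.04-fold for Jund, 4.32-fold for Ier2 and 4.06-fold for Atf3, in CPM. The other 5 members spanned 2.1-fold to 2.73-fold. The coefficient of variation ran from 19.1% for Fosb to 52% for Egr1. Egr1 covered its whole span within O-re, from 268 to 2386 CPM, while in Y it ran from 824 to 1678 CPM. In absolute CPM, Atf3 and Klf6 ran wider in O than in O-re. As highest over lowest library, Klf6 did so too (2.274-fold in O and 1.942-fold in O-re), but Atf3 did not (2.432-fold and 2.845-fold). Atf3 ran from 772 to 1877 CPM in O and from 462 to 1315 CPM in O-re, and Klf6 from 417 to 948 and from 369 to 717 CPM.

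**Figure D1:**
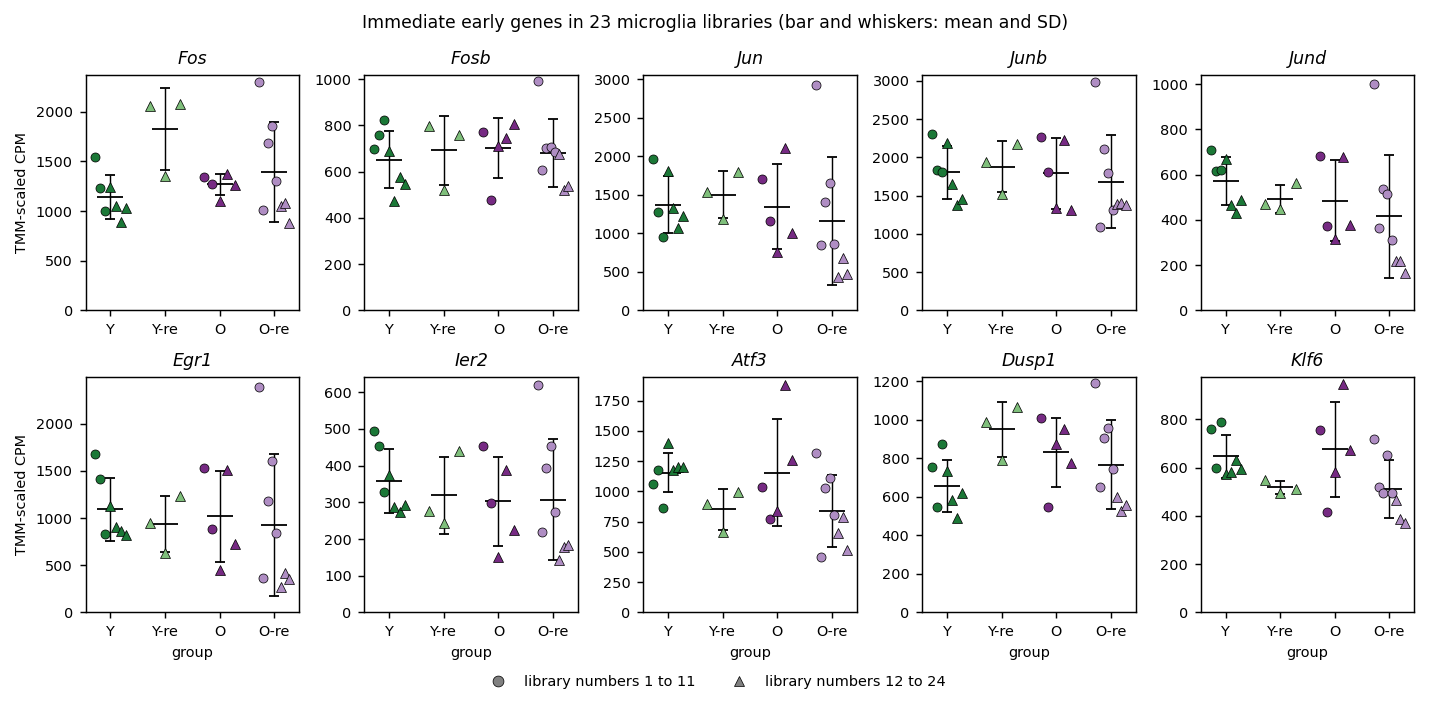
TMM-scaled CPM of the 10 immediate early genes (vertical axes, from 0) in each of the 23 libraries by group (horizontal axis); circles are library numbers 1 to 11, triangles 12 to 24, and bars with whiskers give the mean and SD. O-re replicate 1 is the highest library for Fos, Fosb, Jun, Junb, Jund, Egr1, Ier2 and Dusp1, and the 3 higher-numbered O-re libraries are the lowest for Jund.

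O was compared with Y to ask how these genes differed between old and young mice without repopulation. Cell markers differed as well. Monocyte and neutrophil markers summed to 173 to 1360 CPM in O and 25.9 to 132 CPM in Y, and microglia markers to 11420 to 26270 and 26201 to 31659 CPM. The part of these cells was not tested. No member was called: edgeR's quasi-likelihood test over all 23 libraries gave an adjusted p under 0.05 for 0 of 10 members, against 2.83% of the 18735 genes tested. At an unadjusted p under 0.05 the count was also 0, against 2872 of the 18735 genes. DESeq2 and limma voom with sample quality weights called 0 members. The median log2 fold change of the members was 0.00, with 5 above and 5 below 0, and that of all genes was -0.01. Dusp1 had the lowest p, at 0.34 ± 0.19 (SE, adjusted p 0.43).

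Single libraries show how wide the O group was. Dusp1 was measured at 1006, 549, 874, 950 and 775 CPM in O replicates 1 to 5, and in Y at 492, 618 and 873 CPM (lowest, median and highest of 7). Egr1 was measured at 1532, 881, 447, 1510 and 726 CPM in O and at 824, 903 and 1678 CPM in Y (lowest, median, highest). O libraries therefore fell both above and below the Y median for both genes, and the groups overlapped. In the higher-numbered libraries fitted alone, Dusp1 rose in O by 0.52 ± 0.14 (SE, adjusted p 0.0219), the 1 member called there, against 10.4% of 17185 genes called higher. Dusp1 (775 to 950 CPM in O, 492 to 735 in Y) and Fosb (712 to 806 in O, 472 to 689 in Y) did not overlap between these groups, which also held, in the same direction, for 13.3% of all genes. The lower-numbered libraries alone gave Dusp1 at 0.10 ± 0.31 (SE, adjusted p 1), with 0 of 10 members and 0.00533% of 18745 genes called. In a single fit with 1 coefficient per group and number range, 0 members were called within the higher-numbered libraries, against 7.37% of genes, and Dusp1 had an adjusted p of 0.157. The difference between the ranges was called for 0 members and 0% of genes (lowest adjusted p of a member 0.487). At an unadjusted p under 0.05 there were 1 member and 1769 of 18735 genes.

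Y-re was compared with Y to ask what repopulation left in young mice. Again 0 of 10 members were called over all libraries, against 1.34% of all genes. At an unadjusted p under 0.05 there were 2 members and 2833 of 18735 genes. The 2 members were Fos, at 0.68 ± 0.23 (SE, adjusted p 0.155), and Dusp1, at 0.53 ± 0.22 (SE, adjusted p 0.26). DESeq2 called 0 and voom with quality weights called both, as higher in Y-re. The share of all genes that voom called is not given here or below. The members' median was -0.05 and that of all genes -0.04.

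Fos was measured at 2056, 1351 and 2076 CPM in the 3 Y-re libraries. In Y it was measured at 887, 1052 and 1543 CPM (lowest, median, highest). The lowest Y-re library thus lay below the highest Y library, which was lower-numbered, whereas all Y-re libraries are higher-numbered. Among the higher-numbered libraries, Fos in Y was measured at 1245, 1052, 887 and 1030 CPM, all below Y-re. There Fos rose by 0.82 ± 0.16 (SE, adjusted p 0.00801) and Dusp1 by 0.68 ± 0.14 (SE, adjusted p 0.00985), 2 of 10 members, against 5.41% of genes called higher. Dusp1 was measured at 989, 793 and 1068 CPM in Y-re and at 735, 583, 492 and 618 CPM in those Y libraries, without overlap. Fos was also called with number range as a term beside the group, and in a fit of Y and Y-re alone. The share of all genes called in these fits is not given, so these calls do not set Fos apart.

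Not all members leaned that way. Atf3, at 893, 665 and 994 CPM in Y-re, lay below the 4 higher-numbered Y libraries (1178 to 1403 CPM), but was not called there (-0.52 ± 0.24 SE, adjusted p 0.199). Klf6, at 550, 496 and 510 CPM in Y-re, lay below all 7 Y libraries (574 to 788 CPM), 1 of 10 members against 6.13% of all genes, and was not called over all libraries (-0.32 ± 0.20 SE, adjusted p 0.502). Among the higher-numbered libraries, Y-re did not overlap with Y in 2 members that were higher (Fos, Dusp1) and 2 that were lower (Atf3, Klf6), against 12.6% and 15.4% of all genes. Summed border-associated macrophage markers were 277 to 386 CPM in Y-re and 113 to 129 in those Y libraries; their part in these results was not tested.

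O-re was compared with O to ask what repopulation left in old mice. Over all 23 libraries 0 of 10 members were called, against 0.283% of genes. An unadjusted p under 0.05 was found for 1 member, Klf6 at -0.40 ± 0.17 (SE, adjusted p 0.362), and for 1943 of 18735 genes. DESeq2 and voom with quality weights called 0 as well. The members' median was -0.13 (8 of 10 below 0), and that of all genes 0.00. In the higher-numbered libraries alone, 6 of 10 members fell, against 7.05% of genes called lower. These were Egr1 (-1.38 ± 0.37, adjusted p 0.0312), Jun (-1.29 ± 0.34, 0.0287), Jund (-1.20 ± 0.26, 0.0135), Atf3 (-1.02 ± 0.25, 0.0237), Klf6 (-0.85 ± 0.15, 0.00708) and Dusp1 (-0.62 ± 0.15, 0.0193), each log2 fold change with its SE.

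Jun gives an example. It was measured at 437, 674 and 474 CPM in O-re replicates 6 to 8, the higher-numbered ones, and at 753, 2107 and 1004 CPM in O replicates 3 to 5. In the lower-numbered O-re replicates 1 to 5 it was measured at 2933, 850, 1403, 1654 and 865 CPM, and in O replicates 1 and 2 at 1701 and 1158 CPM. All higher-numbered O-re libraries lay below all O libraries, while the lower-numbered ones lay on both sides of theirs. Egr1 repeated this, at 268, 417 and 351 CPM in O-re against 447, 1510 and 726 CPM in O among the higher-numbered, and at 2386, 360, 1182, 1603 and 840 CPM in O-re against 1532 and 881 CPM among the lower-numbered. Among the higher-numbered libraries, Fos, Fosb, Jun, Jund, Egr1, Atf3, Dusp1 and Klf6, 8 of 10, had all O-re libraries below all O libraries, as had 13.8% of all genes. Over all libraries O-re and O overlapped in every member.

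In the lower-numbered libraries alone 0 members were called, as were 0% of all genes, and 8 of 10 members were above 0, with a median of 0.08. A single fit with 1 coefficient per group and number range called 1 member lower in the higher-numbered O-re, Klf6 (-0.85 ± 0.20 SE, adjusted p 0.0307), against 1.7% of genes. The difference between the ranges was called for 0 members and 0% of genes. At an unadjusted p under 0.05 there were 6 members (lowest adjusted p 0.672) and 1359 of 18735 genes. Beside these values, summed microglia markers were 10722 to 15115 CPM in the higher-numbered O-re libraries, 11420 to 23469 in the higher-numbered O libraries and 15860 to 29382 in the lower-numbered O-re libraries. Border-associated macrophage markers summed to 624 to 1178, 206 to 829 and 68.2 to 791 CPM in the same order. The part of these cells in the differences was not tested.

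**Figure D2:**
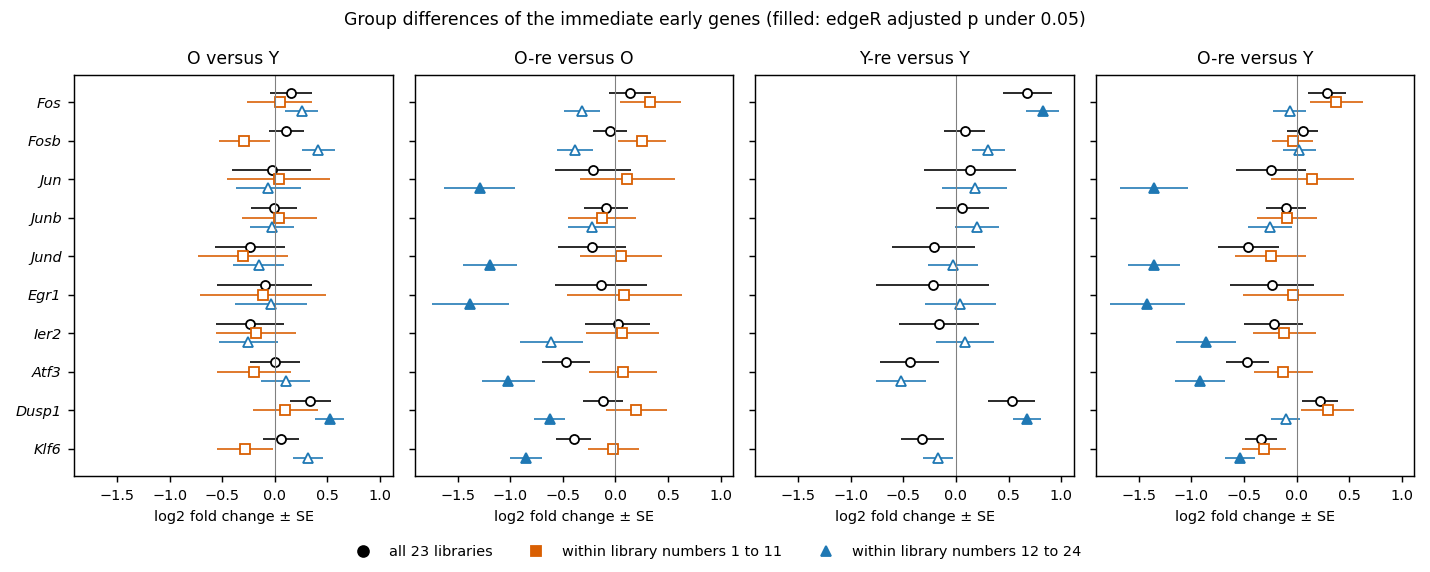
Log2 fold changes with SE (horizontal axes) of the 10 genes in 4 comparisons, from edgeR fits of all 23 libraries (circles), library numbers 1 to 11 alone (squares) and 12 to 24 alone (triangles); filled symbols have an adjusted p under 0.05. All circles are open in these panels, while 6 triangles are filled on the negative side in O-re versus O and in O-re versus Y.

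O-re was also set against Y and against Y-re, which asks whether repopulated old microglia match young ones; these comparisons share their O-re, Y and Y-re libraries with those above. Against Y, 0 of 10 members were called over all libraries, while 15.2% of genes were. At an unadjusted p under 0.05 there were 2 members and 5707 of 18735 genes. The 2 members were Atf3 (-0.47 ± 0.21 SE, adjusted p 0.13) and Klf6 (-0.34 ± 0.15 SE, adjusted p 0.133). DESeq2 called 0, and voom with quality weights called 5 lower (Jun, Jund, Egr1, Atf3 and Klf6). Without O-re replicate 1, the library with the highest Egr1, Jun and Jund, edgeR called 3 lower (Jund, Atf3 and Klf6). The share of all genes called by voom, or without this library, is not given beside these counts. The members' median was -0.23 and that of all genes -0.02.

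Among the higher-numbered libraries 6 members fell in O-re against Y, while 19.2% of genes were called lower: Egr1 (-1.42 ± 0.35 SE, adjusted p 0.00656), Jun (-1.35 ± 0.32, 0.00515), Jund (-1.35 ± 0.25, 0.00104), Atf3 (-0.92 ± 0.24, 0.00865), Ier2 (-0.86 ± 0.28, 0.028) and Klf6 (-0.54 ± 0.15, 0.0102). Jund was measured at 218, 217 and 165 CPM in these O-re libraries and at 670, 467, 431 and 489 CPM in Y. Ier2 was measured at 143, 177 and 183 CPM in O-re and at 373, 288, 273 and 292 CPM in Y. For these 6 members every O-re library was below every Y library, which held for 24.1% of all genes. Summed microglia markers did not overlap either, at 10722 to 15115 CPM in these O-re libraries and 29463 to 31659 CPM in Y. Border-associated macrophage markers summed to 624 to 1178 and 113 to 129 CPM, and astrocyte markers to 20.5 to 36.4 and 93.4 to 116 CPM. The part of these cells in the result was not tested. Fos (-0.07 ± 0.16 SE, adjusted p 0.78), Fosb (0.03 ± 0.16 SE, adjusted p 0.905) and Dusp1 (-0.10 ± 0.14 SE, adjusted p 0.597) were not called. The single fit with group and range coefficients called 5 of these 6 (Ier2 had an adjusted p of 0.0513), against 12.7% of genes lower. The lower-numbered libraries alone called 0 members, at a median of -0.06, and 0.0107% of genes. The difference between the ranges was called for 0 members (lowest adjusted p 0.124) and for 1.39% of genes. At an unadjusted p under 0.05 there were 3 members and 4032 of 18735 genes.

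Against Y-re, all 10 members were below 0 over all libraries, and 0 were called (lowest adjusted p 0.488), against 0% of genes. At an unadjusted p under 0.05 there were 0 members and 2183 of 18735 genes, and DESeq2 called 0 members. Voom with quality weights called Fos, Jun, Jund and Dusp1 lower, and the share of all genes it called is not given. Among the higher-numbered libraries 6 of 10 fell, against 17.8% of genes called lower, with Jun at -1.53 ± 0.34 (SE, adjusted p 0.00466), Egr1 at -1.46 ± 0.37 (SE, 0.00926), Jund at -1.32 ± 0.26 (SE, 0.00249), Ier2 at -0.95 ± 0.30 (SE, 0.0265), Fos at -0.89 ± 0.17 (SE, 0.00238) and Dusp1 at -0.78 ± 0.15 (SE, 0.00213). Fos was measured at 1049, 1077 and 876 CPM in these O-re libraries, below the 1351 to 2076 CPM of Y-re. Fos, Jun, Junb, Jund, Egr1, Ier2, Dusp1 and Klf6 did not overlap, 8 of 10 members against 21.6% of all genes.

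The interaction, the O-re versus O difference less the Y-re versus Y difference, tests whether repopulation moved a gene differently in old and young mice. Over all libraries it was called for 0 members and 0% of genes, with Dusp1 nearest at -0.65 ± 0.29 (SE, adjusted p 0.574). Dusp1 was the 1 member with an unadjusted p under 0.05, against 1545 of 18735 genes. DESeq2 called 0 members. In the higher-numbered libraries, the range that holds all Y-re libraries, it was called as negative for Dusp1 (-1.30 ± 0.20 SE, adjusted p 0.00935) and Fos (-1.15 ± 0.23 SE, adjusted p 0.0165), 2 of 10 members, against 4.75% of genes. Voom with quality weights over all libraries called the same 2 members, and the share of all genes it called is not given.

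The library number itself was tested with the group in the model. The higher-numbered libraries were lower in 9 of 10 members, with a median of -0.36 (0.01 for all genes), and 3 members fell, against 4.6% of genes called lower and 10.3% called in either direction. These were Ier2 (-0.78 ± 0.20 SE, adjusted p 0.0192), Jund (-0.72 ± 0.23 SE, adjusted p 0.049) and Egr1 (-1.002 ± 0.32 SE, adjusted p 0.0496). Ier2 was measured at 399 ± 120 CPM (SD, n = 10) in the lower and 266 ± 92.6 CPM (SD, n = 13) in the higher range. Atf3, at 0.03 ± 0.19 (SE, adjusted p 0.937), was the exception. The ranges also differed in library measures. The ribosomal RNA share of counts was 0.644% to 3.04% in the lower and 0.248% to 0.879% in the higher range. Genes with a count numbered 16398 to 19952 and 17619 to 22207 in the same order. The part of these measures in the differences was not tested. The 3 calls rested on single libraries: 0 were left without O-re replicate 6 or 8, 5 were found without O replicate 2, and Ier2 alone was called in 13 other fits that left out 1 library.

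Within O-re, 6 of 10 members fell from the lower to the higher range, against 9.5% of genes called lower: Egr1 by -1.88 ± 0.47 (SE, adjusted p 0.0108), Jun by -1.54 ± 0.39 (SE, 0.0119), Jund by -1.44 ± 0.32 (SE, 0.00567), Ier2 by -1.22 ± 0.32 (SE, 0.0128), Fos by -0.71 ± 0.21 (SE, 0.0277) and Dusp1 by -0.66 ± 0.21 (SE, 0.0316). Within Y and within O, 0 members were called (lowest adjusted p 0.383 and 0.618), against 0.342% and 0.0107% of genes. At an unadjusted p under 0.05 there was 1 member in Y and 0 in O, against 2205 and 1748 of 18735 genes. The difference of this step between O-re and Y is the difference between ranges given above for O-re versus Y, and that between O-re and O is the one given for O-re versus O; neither was called for any member.

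The members rose and fell together from library to library. All 45 pairs had a positive Pearson r of log2 CPM over the 23 libraries, with a median of 0.63, and 41 pairs had a permutation p under 0.05 after adjustment over the 45 (37 by Spearman's rho). All 45 were also positive within the lower-numbered libraries (median 0.71, 24 called) and within the higher-numbered ones (median 0.62, 24 called), and after group means were removed (median 0.73). Egr1 and Ier2 were closest (r = 0.958, rho = 0.943, permutation p 1e-05, the smallest that 100000 resamples give; adjusted p 4.5e-05). Without the 2 libraries farthest from the Egr1 median, r was 0.938, and within the ranges it was 0.969 and 0.95. All pairs share the same libraries and scaling, so these values are not independent of each other. Pairs of other genes were not tested, so the counts of called pairs do not set the members apart.

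Some pairs were closer than others. Egr1, Ier2, Jun and Jund had pairwise r of 0.89 to 0.96. Jun and Egr1, a nuclear partner of Fos and a factor of another family, reached r = 0.93 (rho = 0.918, permutation p 1e-05, adjusted p 4.5e-05; 0.895 without the 2 farthest libraries). Fos tracked Dusp1 (r = 0.779, rho = 0.75, permutation p 1e-05, adjusted p 4.5e-05; 0.689 without the 2 farthest; 0.626 and 0.87 within the ranges). Fosb tracked Dusp1 too (r = 0.745, rho = 0.697, permutation p 7e-05, adjusted p 0.00021; 0.711 without the 2 farthest; 0.726 and 0.735 within the ranges). In the lower range alone, without its 2 farthest libraries, r fell to 0.266 for Fos with Dusp1 and to 0.309 for Fosb with Dusp1. With all 10 libraries of that range, Fos with Dusp1 was not called (permutation adjusted p 0.091). Fos and Klf6 were the least alike over the 23 libraries (r = 0.233, rho = 0.179, permutation p 0.29).

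**Figure D3:**
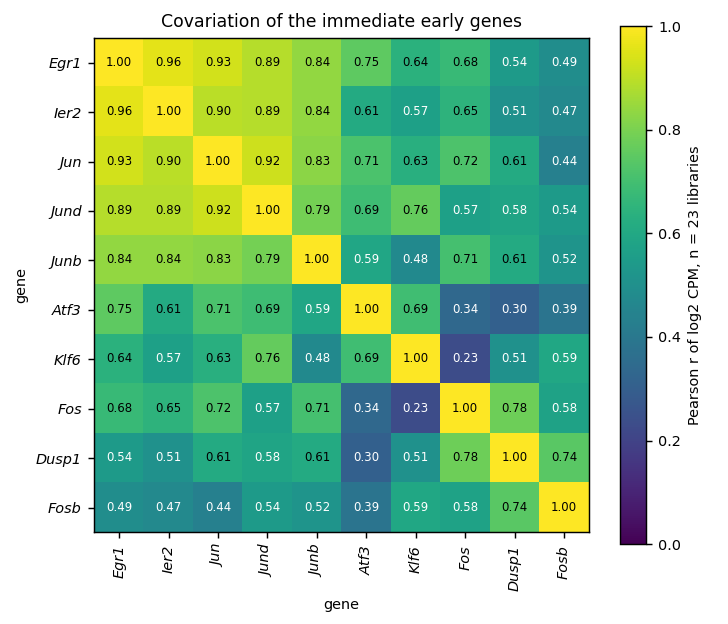
Pearson r between the log2 CPM of each pair of the 10 genes over the 23 libraries (rows and columns are genes, colour and number give r from 0 to 1). Egr1, Ier2, Jun and Jund form a block of values from 0.89 to 0.96, and the lowest value is that of Fos with Klf6 at 0.23.

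The members were also set against cell markers. Of 60 relations computed between the 10 members and 6 library measures, those with summed microglia markers were positive for all 10 members and called for 7 by r (permutation, adjusted over the 60), and those with border-associated macrophage markers were negative for all 10 and called for 7. Jund had r = 0.85 (rho = 0.716, permutation p 1e-05, adjusted p 8.6e-05) with microglia markers, 0.816 without the 2 farthest libraries and 0.897 and 0.851 within the lower and higher range. Egr1 had r = -0.842 (rho = -0.769, permutation p 1e-05, adjusted p 8.6e-05) with border-associated macrophage markers, -0.779 without the 2 farthest and -0.844 and -0.814 within the ranges. Jun, Ier2 and Atf3 were called in both relations, with r of 0.813, 0.802 and 0.655 for microglia markers (0.762, 0.742 and 0.599 without the 2 farthest libraries). Junb and Klf6 were the other members called over all libraries, with r of 0.602 and 0.557 (0.558 and 0.517 without the 2 farthest libraries), and in the higher range alone neither was called. Klf6 was not called in the lower range either (permutation adjusted p 0.059 with microglia and 0.19 with border-associated macrophage markers). In the lower range 5 members were called with microglia markers by r and 5 by rho, and in the higher range 4 and 1. With microglia markers Atf3 was not called in the higher range (r = 0.659, permutation adjusted p 0.072) and Jun not in the lower range (r = 0.742, permutation adjusted p 0.059); Jun was also not called with border-associated macrophage markers in the lower range (r = -0.767, permutation adjusted p 0.052).

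Fos, Fosb and Dusp1 were not called in either relation. Their r with microglia markers was 0.367, 0.154 and 0.226 (rho 0.182, 0.068 and 0.078; permutation adjusted p 0.2, 0.55 and 0.44). After group means were removed it was 0.742, 0.303 and 0.557, against 0.863 for Jund and 0.905 for Jun, given without a test. The library with the lowest microglia sum, O-re replicate 8 at 10722 CPM, held 165 CPM of Jund and 351 CPM of Egr1, while O-re replicate 1 at 29382 CPM held 1000 CPM of Jund and 2386 CPM of Egr1. Monocyte and neutrophil markers were negative for 9 of 10 members, 4 of them called by r. The number of genes with a count, the ribosomal RNA share and the total count were called for 0 members by r, and by rho the ribosomal RNA share was called for 1. The markers and the members are shares of the same libraries, and which of these cells carried the members' RNA was not tested. The share of all genes related to these measures was not computed, so the counts do not set the members apart.

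**Figure D4:**
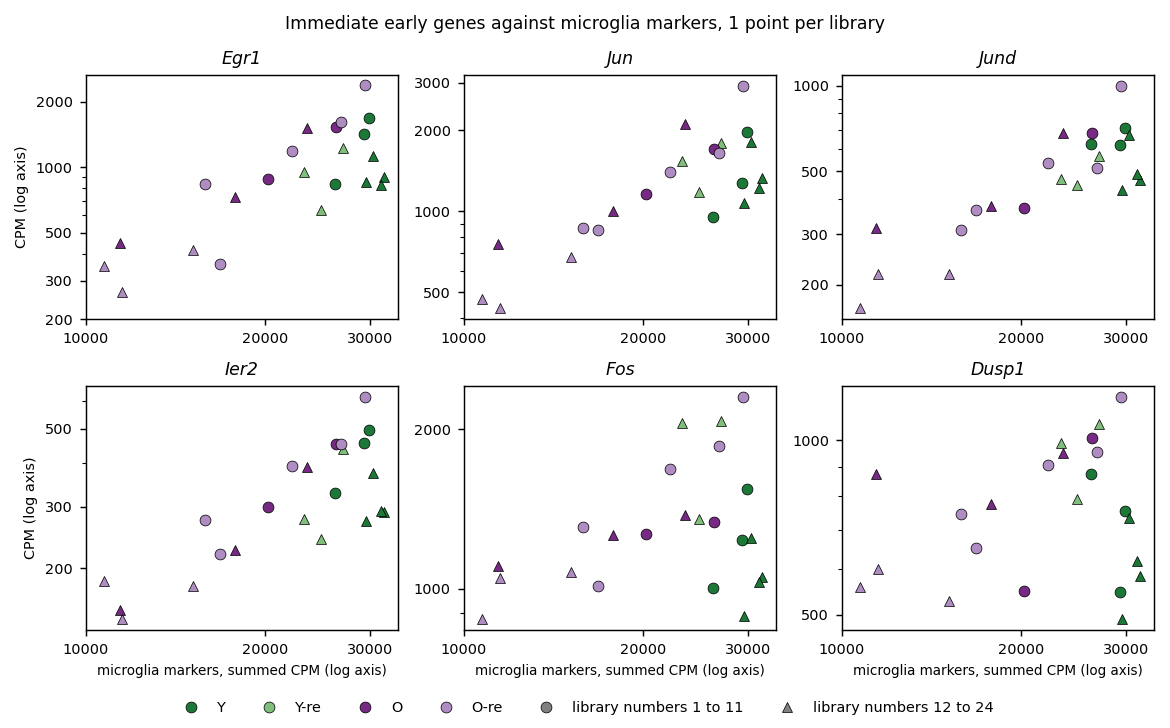
CPM of 6 members (vertical log axes) against the summed CPM of 10 microglia markers (horizontal log axes), 1 point per library, coloured by group, with circles for library numbers 1 to 11 and triangles for 12 to 24. Egr1, Jun, Jund and Ier2 climb with the markers (r of 0.794, 0.813, 0.85 and 0.802 on log2 values), and Fos and Dusp1 scatter (0.367 and 0.226).

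Among 9692 genes with a mean of at least 5 CPM, those most like the mean of the z-scored members over the 23 libraries were Ier5 (r = 0.949), Btg2 (0.94), Smad7 (0.926), Zfp36l1 (0.923) and Abi3 (0.907). Within the lower and the higher range, Ier5 had 0.949 and 0.952 and Btg2 0.889 and 0.972. Ier5 and Btg2 are themselves early response genes, Smad7 is an inhibitor of TGF-beta signalling, Zfp36l1 binds AU-rich elements, and Abi3 is an actin regulator. Like the members, these 5 genes were called in none of the 6 group comparisons over all libraries, and Btg2 fell in the higher number range (-0.65 ± 0.19 SE, adjusted p 0.0343).

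Genes of the same pathways were counted from lists, and several of them passed the test in comparisons in which 0 members did. In O versus Y, where 2.59% of all genes were called higher, 1 of 15 other AP-1 and bZIP factors rose (Fosl2, a slower Fos relative, 1.28 ± 0.33, adjusted p 0.0356; log2 with SE). Of 22 other early response factors 2 rose, the nuclear receptor Nr4a2 (3.37 ± 0.65, adjusted p 0.00764) and the repressor Bhlhe40 (2.27 ± 0.48, 0.011). Of 31 other early response regulators tested 1 rose, Rgs1 (0.81 ± 0.21, 0.0412), a brake on G protein signalling, while Pim1 was not called (1.07 ± 0.36, 0.124). Of 10 Kruppel-like factors 1 rose, Klf9 (2.15 ± 0.58, 0.045), a glucocorticoid-induced factor. No gene of these lists fell, and edgeR called 0 of 9 other dual-specificity phosphatases, 0 of 24 upstream kinases and factors and 0 of 15 heat shock genes. Their medians were 0.19, 0.05 and 0.14, and 1, 6 and 4 of them had an unadjusted p under 0.05, against 2872 of 18735 genes. The lowest p in these lists were those of Dusp4 (1.06 ± 0.39, 0.164), Mkl2 (0.60 ± 0.20, 0.129) and Hsph1 (0.66 ± 0.23, 0.142).

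Nr4a2 was measured at 6.7, 42.2, 136, 23.3 and 65.2 CPM in O replicates 1 to 5 and at 3.29, 5.04 and 9.79 CPM in Y (lowest, median, highest). Bhlhe40 was measured at 27.4, 105, 274, 70.8 and 149 CPM in O and at 15.7, 27.5 and 35.5 CPM in Y. In both genes O replicate 1 lay within the Y range, and O replicate 3 was highest. O replicate 3 had the lowest microglia marker sum of the O libraries (11420 CPM) and the highest sums for border-associated macrophages (829 CPM) and for monocytes and neutrophils (1360 CPM); their part was not tested. Nr4a2 was called in all 23 fits that left out 1 library, Bhlhe40 in all but the one without O replicate 3 (adjusted p 0.0807), and Fosl2, Rgs1 and Klf9 in 14, 11 and 11 of the 23. With upper-quartile scaling Klf9 was not called. In the lower-numbered libraries alone none of these 5 was called, with Nr4a2 at 2.06 ± 0.82 and Bhlhe40 at 1.33 ± 0.61 (SE, adjusted p 1 for both).

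**Figure D5:**
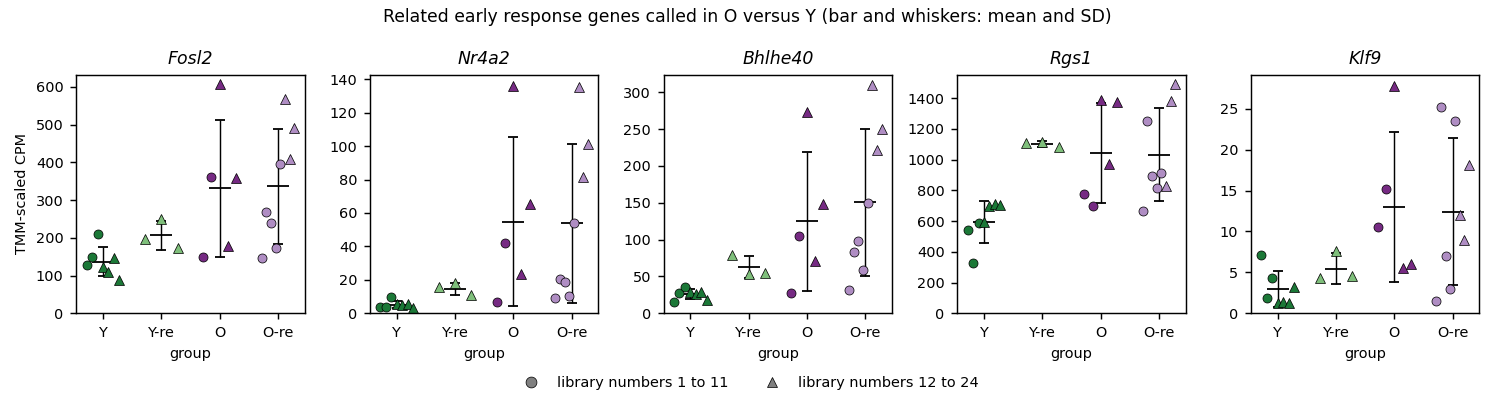
TMM-scaled CPM (vertical axes, from 0) of the 5 related genes called in O versus Y, by group and library (circles, library numbers 1 to 11; triangles, 12 to 24), with mean and SD. O and O-re libraries spread widely, as for Nr4a2 from 6.7 to 136 CPM in O and from 9.08 to 135 CPM in O-re, while Y stays between 3.29 and 9.79 CPM.

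In Y-re versus Y, where 0.827% of all genes were called higher and 0.512% lower, 2 of 15 AP-1 and bZIP factors rose: Atf5 (0.82 ± 0.18 SE, adjusted p 0.0232), a stress-induced factor, and Atf6 (0.53 ± 0.13 SE, adjusted p 0.0491), a sensor of misfolded protein in the endoplasmic reticulum. Of 10 Kruppel-like factors 2 fell, the TGF-beta-induced Klf10 (-1.16 ± 0.19 SE, adjusted p 0.00453), which also stands among the early response factors, and its relative Klf11 (-0.68 ± 0.14 SE, adjusted p 0.0156). Of 9 phosphatases 1 fell, Dusp8 (-1.81 ± 0.43 SE, adjusted p 0.0375), which acts on JNK and p38, while Dusp16 was not called (-0.87 ± 0.24 SE, adjusted p 0.0766). Klf10 was measured at 28.6, 28.4 and 34.8 CPM in Y-re, below the 49.0 to 83.2 CPM of all Y libraries. Dusp8 was measured at 6.62, 7.33 and 11.1 CPM in Y-re, below the 22.5 to 44.1 CPM of Y. Of the regulators, the upstream kinases and factors and the heat shock genes edgeR called 0. An unadjusted p under 0.05 was found for 6, 6 and 3 of them, against 2833 of 18735 genes. The lowest p were those of Rgs1 (0.89 ± 0.25 SE, adjusted p 0.0743), Map3k5 (0.30 ± 0.09 SE, adjusted p 0.117) and Hspa1b (1.77 ± 0.57 SE, adjusted p 0.126). Calls were lost when 1 Y-re library was left out: without replicate 1 or 2 all 5 were lost (Klf10, Klf11, Atf5, Atf6 and Dusp8), and without replicate 3 Klf11, Atf6 and Dusp8. Klf10, Klf11 and Atf5 had adjusted p up to 0.0564, 0.197 and 0.163 in these fits. Atf6 and Dusp8 were also lost without single Y libraries (adjusted p up to 0.196 and 0.213), and Atf6 without the filter or with the number range as a term.

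In O-re versus O, where 0.219% of all genes were called lower, 1 gene of all these lists was called, Trib1 (-0.61 ± 0.13 SE, adjusted p 0.0464), a pseudokinase that directs protein degradation. It was measured at 203, 143, 194, 251 and 212 CPM in O and at 83.7, 128 and 161 CPM in O-re (lowest, median, highest). The groups overlapped in O replicate 2, and the call held in 4 of 23 fits that left out 1 library; it was lost with upper-quartile scaling, without the filter and with only the groups compared. Cxcl2, next by p among the 31 regulators, was not called (1.27 ± 0.40 SE, adjusted p 0.185), nor was Klf10 (-0.52 ± 0.15 SE, adjusted p 0.137).

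In O-re versus Y, where 9.28% of all genes were called higher and 5.92% lower, 3 of 15 AP-1 and bZIP factors rose (Atf5 0.73 ± 0.14, Fosl2 1.30 ± 0.30 and Atf6 0.40 ± 0.10, with SE). Of 22 early response factors 3 rose (Bhlhe40 2.54 ± 0.45, Nr4a2 3.35 ± 0.62 and the Notch target Hes1 1.06 ± 0.31) and 1 fell, the NF-kappaB subunit Rel (-0.37 ± 0.11). Of 31 regulators 3 rose and 4 fell, among them Rgs1 (0.79 ± 0.19), the chemokine Ccl4 (-0.98 ± 0.26) and the stress gene Gadd45b (-0.77 ± 0.21). Of 9 phosphatases 1 rose, Dusp4 (1.72 ± 0.36), and 1 fell, Dusp8 (-1.21 ± 0.29). Of 24 upstream kinases and factors 2 rose and 2 fell, among them the serum response factor partners Mkl2 (0.88 ± 0.18), Elk1 (1.18 ± 0.26) and Elk4 (-0.33 ± 0.08). Of 10 Kruppel-like factors 1 rose, Klf9 (2.08 ± 0.54). Of 15 heat shock genes 3 rose, Hspd1 (0.41 ± 0.11), Hsp90ab1 (0.33 ± 0.10) and Hsph1 (0.65 ± 0.21), and 1 fell, Hspb1 (-2.03 ± 0.67). Several calls depended on the processing, those of Map3k8 (an upstream kinase, -0.49 ± 0.17), the chemokine Cxcl2 (1.10 ± 0.35) and Trib1 (-0.36 ± 0.12) among them. Without the filter Hsp90ab1, Hspb1, Map3k8 and Trib1 were not called. With only the groups compared Hspb1, Map3k8, Rel, Cxcl2 and Trib1 were lost, and with upper-quartile scaling Hsph1, Hsp90ab1 and Cxcl2. Voom did not call Hspb1, and Rel and Trib1 were not called in the higher-numbered libraries. Of 23 fits that left out 1 library, Map3k8 was called in 5, Trib1 in 6, Hspb1 in 9, Cxcl2 in 14, Hsph1 in 15, Hsp90ab1 in 18, and Hes1 and Rel in 21 each, so the counts of these lists rested on single libraries. In the lower-numbered libraries alone none of these genes was called. Medians of the 7 lists lay between -0.17 and 0.11, against -0.02 over all genes. In O-re versus Y-re and in the interaction, edgeR called 0 genes of these lists over all libraries, as it called 0% of all genes. At an unadjusted p under 0.05 each list had 2 to 6 genes in O-re versus Y-re and 0 to 4 in the interaction. Of all 18735 genes, 2183 and 1545 passed that level.

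Genes of 5 of the 7 lists were also called by library number. Of 15 heat shock genes 6 were higher and 1 lower in the higher range, Hspa8 (0.56 ± 0.10 SE, adjusted p 0.00175) and Dnajb4 (-0.72 ± 0.12 SE, adjusted p 0.0016) among them, and of 9 phosphatases 2 were higher, with Dusp5 (1.05 ± 0.29 SE, adjusted p 0.0264), and 2 lower, with Dusp8 (-0.76 ± 0.21 SE, adjusted p 0.0255). Of 22 early response factors 2 fell, Irf1 (-0.69 ± 0.11 SE, adjusted p 0.001) and Cebpd (-0.87 ± 0.16 SE, adjusted p 0.00337), both induced by cytokines, and 1 rose, the nuclear receptor Nr4a3 (0.92 ± 0.28 SE, adjusted p 0.0377). Of 31 regulators 2 rose, Rgs1 (0.53 ± 0.13 SE, adjusted p 0.014) and Ptgs2 (1.03 ± 0.25 SE, adjusted p 0.0156), which makes prostaglandins, and 1 fell, Btg2. Of 24 upstream kinases and factors 2 rose and 2 fell. Of 23 fits that left out 1 library, Nr4a3 was called in 12, Btg2 in 15, Dusp8 in 19 and Dusp5 in 20, and Hspa8, Dnajb4, Irf1, Cebpd, Rgs1 and Ptgs2 in all. Of all genes 5.67% were called higher in that contrast.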

How the data were processed

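Microglial poly(A) RNA of 23 libraries in 4 groups was analysed. The authors deposited 1 table per library with expected counts and TPM per gene, per the file headers. Per the submitters' processing notes, STAR, RSEM, FastQC 0.11.5 and limma were used with GRCm38. The use of strand in counting is not given in the sources used here, so genes that overlap are uncertain. Of the deposited expected counts 87.26% were whole (tolerance 1e-06), and all were rounded before testing. TPM as deposited by the authors served only to order genes by level.

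Symbols were read from the gene identifiers. In R 4.3.3, edgeR 4.0.16 (filterByExpr, TMM, 1 coefficient per group, quasi-likelihood test) was fitted over 18735 genes and all 23 libraries, with Benjamini-Hochberg adjustment over all genes and calls at 0.05. The edgeR test was tested on simulated data. Correlations used log2 CPM (prior count 2) and 100000 permutations. The 10 members, the lists and the comparisons were chosen with earlier results of these data known. List genes were named when called, at most the 4 with the smallest p per list and comparison, and otherwise the 2 with the smallest p where space allowed; the 5 most alike genes were named by r. Alternatives were scaling by RLE or upper quartile, every gene with a count, a floor of 5 CPM on the mean, voom (limma 3.58.1) with quality weights, DESeq2 1.42.0, only the groups compared, the number range as a term, each range alone, an exact permutation test, and leaving out each library. Separate Jund models, differences between ranges and range within a group were added after seeing the data. A gene of the list of other AP-1 and bZIP factors is not reported here, and the list's counts leave it out.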

Additional observations from a re-analysis of the deposited data

Results flagged for a closer look

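Of 30 member and group combinations of 4 to 10 libraries, 3 held a library far from the others by Dixon's ratio, and chance marks about 1 in 20. Fosb in O replicate 2 was the lowest of its group at 474.9 CPM, where the next library stood at 711.57 CPM. Fosb in O-re replicate 1 was the highest at 993.58 CPM, with the next at 707.13 CPM. Jund in O-re replicate 1 was the highest at 999.5 CPM, with the next at 534.26 CPM. O-re replicate 1 also had the highest microglia marker sum of its group, 29382 CPM.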

How the results depend on the processing

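No paired analysis was possible because the library numbers in the titles are unique and no 2 groups share one. Over all libraries the count of members called was 0 in the 6 group comparisons, and it stayed 0 with RLE and upper-quartile scaling, without a filter, at a mean of at least 5 CPM, by DESeq2, and with separate Jund models. Voom with quality weights called 2 in Y-re versus Y, 5 in O-re versus Y, 4 in O-re versus Y-re, 2 in the interaction and 5 for the number range. Only the groups compared gave 1 in Y-re versus Y, and the range as a term gave 1 there and 1 in O-re versus Y (Jund). Within numbers 12 to 24 the counts were 1 in O versus Y, 6 in O-re versus O, 2 in Y-re versus Y, 6 in O-re versus Y, 6 in O-re versus Y-re and 2 in the interaction. For the number range, the count was 0 with no group term and 1 without the Y-re libraries. Leaving out 1 library gave 0 to 3 members in O-re versus Y and 0 to 5 for the number range, and 0 in the other 5 group comparisons. The counts by voom, with only the groups compared, with the range as a term and without 1 library carry no share of all genes. These counts do not set the members apart. Values called over all libraries by edgeR kept their sign in the settings run. In O-re versus O, Jun, Jund, Egr1, Atf3 and Dusp1 were called as lower within 12 to 24 and lay between 0.06 and 0.20 above 0 within 1 to 11, as Jun did in O-re versus Y (0.15). The ranges hold 2 to 5 libraries per group, and the exact permutation test, which called 0 of all genes in O versus Y, O-re versus O, Y-re versus Y and O-re versus Y-re, bears on no member there (in O-re versus Y it called 1924 genes and 0 members); the cause of the differences between ranges was not tested.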
